A study of Mus musculus with 17 samples.

Results

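Antisense RNA (aRNA) amplification copies mRNA into cDNA and transcribes the cDNA many times with T7 RNA polymerase, and each further round starts from the product of the round before it. It is used where a sample, such as a dendrite or a single neuron, holds too little mRNA to be measured directly. Copying starts at the poly(A) tail or at random primers, so later rounds favour sequence near the 3′ end, and at very low input the transcripts that enter the reaction are a small sample of those in the tissue.

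The data described here are 3 arrays of 0.1 pg of mRNA amplified through 4 rounds and 3 arrays of 1 pg of mRNA amplified through 2 rounds, 6 of the 17 arrays of a series of dilution controls. The arrays were chosen by their titles. The 2 groups differ in input and in rounds at once, so a difference between them cannot be assigned to either factor. All 17 arrays carried RNA of one source, cortex taken from an adult female mouse of the strain C57BL/6. The replicates of a group are separate amplifications of that RNA, so every p-value below measures how far amplifications differ and says nothing of differences among mice. The remaining arrays are 3 of 0.1 pg after 2 rounds, 3 of 1 pg after 4 rounds, 3 of 10 pg after 4 rounds, 1 of 10 pg after 2 rounds and 1 of 5 µg of RNA without the aRNA rounds, called bulk here. Whether the labelling amplification that every amplified sample received is counted among the rounds is not stated.

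Levels are log2 values of probe sets of an Affymetrix whole-genome mouse array, centred here on the median of each array and scaled to a common distance between the 10th and 90th percentiles, so that 0 is the median probe set of an array. Before centring the array medians lay between 5.64 and 6.01, and the distances between percentiles lay between 4.22 and 4.97. The array medians and those distances are the only measured values that the choice and preparation of these 6 arrays used. The pair was, however, proposed with earlier results of these data known, among them the high levels of Pex6, Lsamp and Bmp2k in both groups. How alike the groups are is therefore described without a test. Of 45037 probe sets analysed, 34945 carried a single gene symbol, and each of 18193 genes is represented by 1 probe set, that of the highest mean when all 17 arrays are averaged. All of these arrays but bulk were amplified, so the choice favours probe sets that are high in amplified arrays.

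Defining markers of cortical neurons lay above bulk in some cases and below it in others. Of 19 pan-neuronal genes, 4 were above bulk in all 6 amplified arrays and 8 below it in all 6, and the counts were 4 and 7 of 15 markers of inhibitory neurons and 2 and 7 of 14 markers of excitatory neurons. Over all 18193 genes they were 6013 and 4071. Map2, a microtubule-associated protein of dendrites, had levels of 6.38, 6.27 and 6.75 in the arrays of 0.1 pg after 4 rounds, 6.44, 7.03 and 7.0 in those of 1 pg after 2 rounds and 6.16 in bulk. Gad1, which makes GABA in inhibitory neurons, had 4.22, 5.09 and 4.66 after 4 rounds from 0.1 pg, 4.82, 5.18 and 4.94 after 2 rounds from 1 pg, and 4.20 in bulk. Both genes were above bulk in all 6 amplified arrays. Slc17a7, the vesicular glutamate transporter of cortical excitatory neurons, had −0.14, −0.17 and −1.52 at 0.1 pg after 4 rounds, −0.07, 0.69 and 1.49 at 1 pg after 2 rounds, and 1.67 in bulk. It lay below the array median in 4 of the 6 amplified arrays. Alb, the plasma albumin made by liver, was below the median in every one of these 7 arrays, at −1.78, −1.81 and −1.52 in 0.1 pg after 4 rounds, −1.57, −0.86 and −1.55 in 1 pg after 2 rounds and −0.95 in bulk.

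Across all 45037 probe sets the 2 groups were about as similar to each other as replicates were to each other. Pearson's r between an array of 0.1 pg after 4 rounds and one of 1 pg after 2 rounds was 0.855 to 0.908 (mean 0.875, 9 pairs of arrays). Within 0.1 pg after 4 rounds r was 0.867 to 0.926 (mean 0.892), and within 1 pg after 2 rounds 0.882 to 0.899 (mean 0.889). The correlation with bulk was lower in both, at 0.663 to 0.692 (mean 0.674) for 0.1 pg after 4 rounds and 0.681 to 0.705 (mean 0.693) for 1 pg after 2 rounds. The lowest r across the 2 groups was above the highest r of either group with bulk. These correlations run over probe sets of arrays that share one RNA, one array design and each probe set's own affinity, so they are descriptions and have no p-value.

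The 2 groups were more like each other than either was like a group that shares its input or its rounds. Arrays of 0.1 pg after 4 rounds correlated with arrays of 0.1 pg after 2 rounds at a mean of 0.743 and with arrays of 1 pg after 4 rounds at a mean of 0.769. Arrays of 1 pg after 2 rounds correlated with those of 0.1 pg after 2 rounds at a mean of 0.760 and with those of 1 pg after 4 rounds at a mean of 0.760. The mean of 0.875 across the 2 groups exceeded all 4 of these. Replicates of the other groups were less alike too. Arrays of 0.1 pg after 2 rounds correlated among themselves at a mean of 0.721, and arrays of 1 pg after 4 rounds at 0.822. How far that spread lowers their r with the pair was not tested. One array of 1 pg after 4 rounds, replicate 2, stood nearer to the 6 arrays than its own replicates did, with r of 0.830 to 0.846, against 0.749 to 0.792 for replicate 1 and 0.680 to 0.741 for replicate 3. Replicate 3 of 10 pg after 4 rounds likewise had r of 0.785 to 0.810 with the 6 arrays, against 0.672 to 0.724 for its replicate 1.

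**Figure D1:**
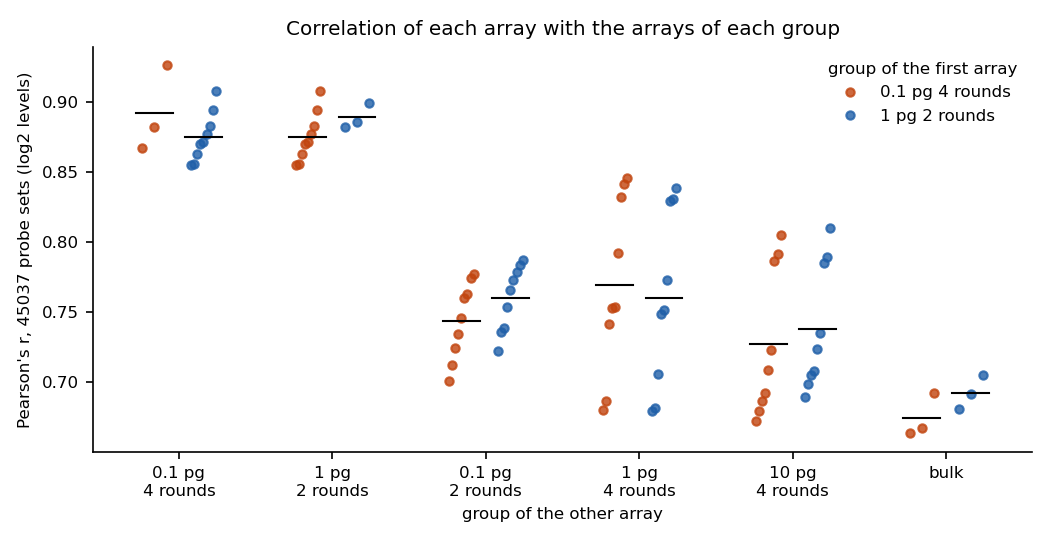
Pearson's r over 45037 probe sets (vertical axis) between each of the 3 arrays of 0.1 pg after 4 rounds or the 3 arrays of 1 pg after 2 rounds and the arrays of 6 groups (horizontal axis). Points are pairs of arrays and black lines are means. The pairs across the 2 groups sit at 0.855 to 0.908, with the pairs within either group (0.867 to 0.926 and 0.882 to 0.899) and above every pair with bulk (0.663 to 0.705).

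Gene by gene, levels in the 2 groups differed by less than 1 on the log2 scale in 16459 of 18193 genes (90.5%) and by less than 2 in 18035 (99.1%). The 95% interval of the difference lay within ±1 in only 692 genes (3.80%) and within ±2 in 14086 (77.4%), so 3 arrays a group bounded the difference to under 2 log2 units in most genes and to under 1 in few. The median SE of a difference was 0.55. The median SD between replicates was 0.406 at 0.1 pg after 4 rounds and 0.455 at 1 pg after 2 rounds, against 0.820 at 0.1 pg after 2 rounds, 0.528 at 1 pg after 4 rounds and 0.404 at 10 pg after 4 rounds.

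The moderated test of limma, fitted over all 17 arrays, called 10 of 45037 probe sets (0.0222%) different between 0.1 pg after 4 rounds and 1 pg after 2 rounds at a Benjamini-Hochberg adjusted p below 0.05, 5 higher and 5 lower. Probe sets and genes past this threshold are referred to as called. At an unadjusted p below 0.05 there were 2146 (4.76%). Since the pair was proposed with its likeness known, its count and those of the other pairs are a description. For 0.1 pg after 4 rounds the other pairs gave 1418 calls against 0.1 pg after 2 rounds, 1246 against 1 pg after 4 rounds and 3992 against 10 pg after 4 rounds. For 1 pg after 2 rounds they gave 704 against 0.1 pg after 2 rounds, 1599 against 1 pg after 4 rounds and 4487 against 10 pg after 4 rounds. The groups that cross the pair, 0.1 pg after 2 rounds and 1 pg after 4 rounds, differed from each other in 5605 probe sets. The count of 10 depended on single arrays. Omitting a single array of 0.1 pg after 4 rounds left 8 calls (replicate 1), 0 (replicate 2) or 3 (replicate 3), and omitting one of 1 pg after 2 rounds left 3 (replicate 1) or 2 (replicate 2 or 3).

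At the level of genes, 3 of 18193 (0.0165%) were called between the groups, Tubb2b higher and Ociad1 and Cltc lower. Tubb2b encodes a beta-tubulin, a building block of microtubules that is abundant in growing neurons. Its levels were 6.75, 7.29 and 6.90 in 0.1 pg after 4 rounds and 1.80, 1.56 and 1.79 in 1 pg after 2 rounds, and bulk stood at 1.83. The groups were far apart and the arrays of 1 pg after 2 rounds lay at the level of bulk. The difference was 5.26 ± 0.59 (log2, SE, n = 3 each, adjusted p = 0.00359 by limma). Against bulk it was 5.15 for 0.1 pg after 4 rounds (adjusted p = 0.00405 by limma) and −0.11 for 1 pg after 2 rounds (adjusted p = 0.961 by limma). In the other groups Tubb2b was at 1.81, 3.46 and 0.39 in 0.1 pg after 2 rounds, 6.52, 6.84 and 6.15 in 1 pg after 4 rounds, 5.04, 6.01 and 5.41 in 10 pg after 4 rounds and 4.22 in 10 pg after 2 rounds. All 9 arrays that passed through 4 rounds were above all 7 arrays of 2 rounds and above bulk.

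Ociad1, a protein of endosomal and mitochondrial membranes, had levels of 0.37, −0.75 and 0.17 in 0.1 pg after 4 rounds and 4.43, 4.23 and 4.27 in 1 pg after 2 rounds, and bulk was at 3.90. The difference was −4.38 ± 0.51 (log2, SE, n = 3 each, adjusted p = 0.00359 by limma). Here too 1 pg after 2 rounds was near bulk (difference 0.41, adjusted p = 0.796 by limma) and 0.1 pg after 4 rounds was not (−3.97, adjusted p = 0.00719 by limma). The arrays of 0.1 pg after 2 rounds, at 0.30, −0.47 and 0.14, were as low as those of 0.1 pg after 4 rounds, while 1 pg after 4 rounds gave 2.37, 0.95 and 2.08. A further probe set of Ociad1 differed by 0.52 between the groups and was not called.

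Cltc, the heavy chain of clathrin, which coats the vesicles of endocytosis, had levels of 0.03, 0.19 and −0.30 in 0.1 pg after 4 rounds and 2.80, 4.41 and 2.63 in 1 pg after 2 rounds, against 5.58 in bulk. The difference was −3.31 ± 0.53 (log2, SE, n = 3 each, adjusted p = 0.0439 by limma). Against bulk it was −5.60 at 0.1 pg after 4 rounds (adjusted p = 0.00161 by limma) and −2.30 at 1 pg after 2 rounds (adjusted p = 0.0924 by limma). Cltc was at 0.00, 0.99 and 1.83 in 0.1 pg after 2 rounds, 5.15, 5.25 and 5.00 in 1 pg after 4 rounds and 5.39, 5.81 and 5.07 in 10 pg after 4 rounds. Its call was lost when any single array of the 2 groups was left out (difference −3.63 to −2.74), and another probe set of Cltc differed by 0.40 and was not called.

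The other 7 called probe sets were secondary probe sets of named genes or carried no symbol. Purb, a Pur-family protein that binds single-stranded DNA and RNA, had a probe set at −2.30, −1.95 and −2.53 in 0.1 pg after 4 rounds and 1.02, 3.15 and 1.59 in 1 pg after 2 rounds, with bulk at 2.70 (difference −4.18, adjusted p = 0.0129 by limma). Elavl1, also known as HuR, binds and stabilises mRNAs, and one of its probe sets was at 0.27, 0.37 and 0.15 in 0.1 pg after 4 rounds, 2.51, 2.76 and 2.58 in 1 pg after 2 rounds and 3.52 in bulk (difference −2.36, adjusted p = 0.0398 by limma). In both, 1 pg after 2 rounds was nearer to bulk. Dner, a neuronal Notch ligand, ran the other way, with 3.03, 3.16 and 2.67 in 0.1 pg after 4 rounds, −0.91, −0.42 and −0.69 in 1 pg after 2 rounds and 2.80 in bulk (difference 3.63, adjusted p = 0.0143 by limma). Otud5, a deubiquitinase, had a probe set at −1.48, −0.64 and −1.38 in 0.1 pg after 4 rounds, 2.41, 3.48 and 4.24 in 1 pg after 2 rounds and −0.90 in bulk (difference −4.55, adjusted p = 0.0291 by limma), so 0.1 pg after 4 rounds was nearer to bulk, as in Dner. Armcx2 had 2.79, 4.87 and 2.74 in 0.1 pg after 4 rounds, −0.68, −2.67 and −1.30 in 1 pg after 2 rounds and −0.13 in bulk (difference 5.02, adjusted p = 0.0199 by limma), with 1 pg after 2 rounds nearer to bulk. The 2 probe sets with no symbol were higher at 0.1 pg after 4 rounds by 3.97 and 4.42. For none of these 5 genes was another probe set of the same gene called between the groups.

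**Figure D2:**
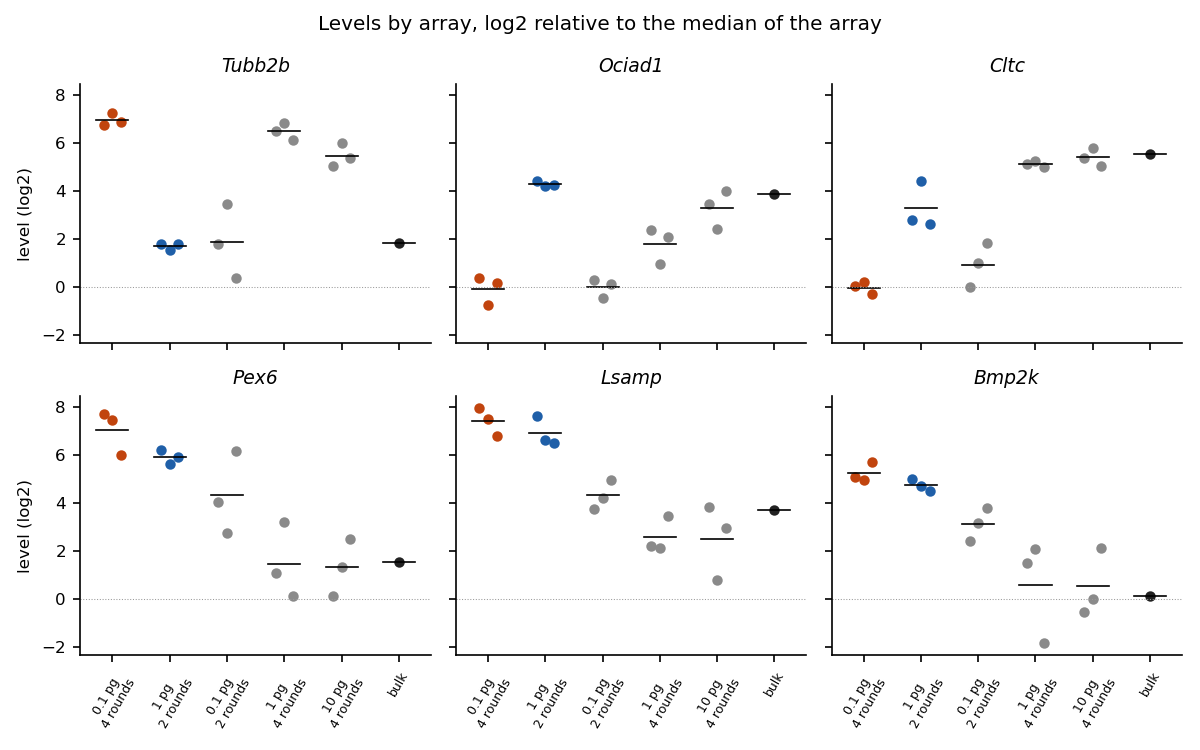
Levels (log2, scaled, vertical axis) of Tubb2b, Ociad1, Cltc, Pex6, Lsamp and Bmp2k in each array of 6 groups (horizontal axis), with 1 point per array. Tubb2b lies at 6.75 to 7.29 in 0.1 pg after 4 rounds and at 1.56 to 1.80 in 1 pg after 2 rounds, whereas Pex6, Lsamp and Bmp2k are high in both groups.

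Relative to bulk, 458 genes were called the same way in both groups, 387 in 0.1 pg after 4 rounds alone and 216 in 1 pg after 2 rounds alone. A deviation of the 1 bulk array enters every difference from bulk, and cannot be told apart from an effect of amplification; its spread was taken to be that of the other groups, and the differences of the 2 groups share that array. For 0.1 pg after 4 rounds 2045 probe sets (4.54%) were called against bulk, 753 higher and 1292 lower, and for 1 pg after 2 rounds 1634 (3.63%), 646 higher and 988 lower. With the deposited values, neither centred nor scaled, the counts were 3307 (1822 higher, 1485 lower) for 0.1 pg after 4 rounds and 2817 (1615 higher, 1202 lower) for 1 pg after 2 rounds, so whether more were higher or lower depends on the scaling. Omitting replicate 1 or replicate 2 of 0.1 pg after 4 rounds left 947 or 905 calls for that group, and moved the count for 1 pg after 2 rounds to 977 or 1010. Omitting an array of 1 pg after 2 rounds left 603 (replicate 1), 766 (replicate 2) or 473 (replicate 3) calls for that group. Over all genes the median difference from bulk was 0.18 at 0.1 pg after 4 rounds and 0.23 at 1 pg after 2 rounds, and with the deposited values 0.37 at 0.1 pg after 4 rounds and 0.34 at 1 pg after 2 rounds.

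By genes, 845 were called against bulk in 0.1 pg after 4 rounds (398 or 2.19% higher, 447 or 2.46% lower) and 674 in 1 pg after 2 rounds (340 or 1.87% higher, 334 or 1.84% lower). Of these, 458 were called the same way in both, 213 (1.17%) higher and 245 (1.35%) lower, and 0 were called in opposite ways. Both differences subtract the same bulk array, which favours calls of the same way in both, so these counts are a description. Without any one of the 6 arrays, 146 to 347 genes were called the same way in both, fewest without replicate 3 of 1 pg after 2 rounds, and 143 to 316 of the 458 remained among them. The 458 are 54.2% of the genes called in 0.1 pg after 4 rounds and 68.0% of those called in 1 pg after 2 rounds. Of the 387 genes called only in 0.1 pg after 4 rounds, just Tubb2b, Ociad1 and Cltc were also called between the groups. Of the 216 called only in 1 pg after 2 rounds 0 were. For the others a call in a single group does not show a difference between the groups. The lack of a call between the groups does not show that a difference is absent.

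Genes lower than bulk in both groups were mostly genes high in bulk. Genes were split by their bulk level into 4 parts of near equal size. The part with the highest bulk levels (4548 genes) held 230 of the 245 shared lower genes and 10 of the 213 shared higher genes, while the part with the lowest (4549 genes) held 89 of the shared higher genes and 0 of the shared lower ones. The bulk level is part of both differences, so this arrangement is a description.

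**Figure D3:**
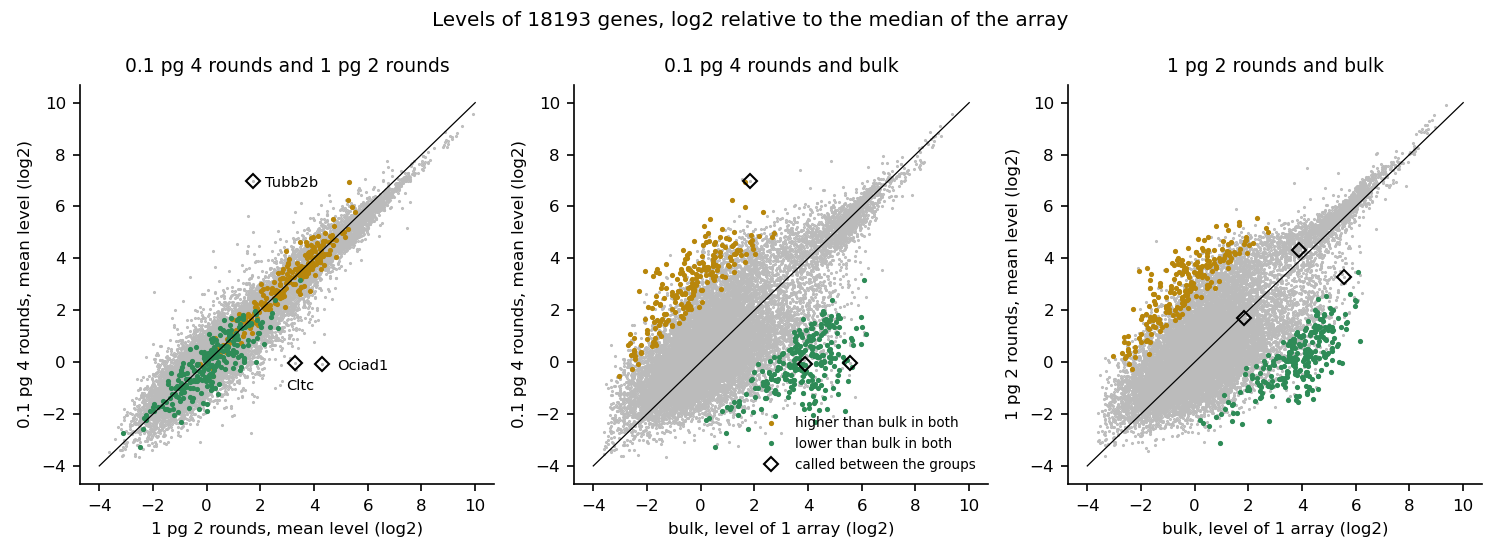
Mean levels (log2, scaled) of 18193 genes, 1 point per gene, in 0.1 pg after 4 rounds against 1 pg after 2 rounds and in each of them against bulk. Gold points are the 213 genes higher than bulk in both groups, green points the 245 lower in both, and diamonds the 3 genes called between the groups. Points spread less between the 2 groups than between either group and bulk.

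The genes highest above bulk in both groups included a gene of the sperm acrosome and RNA-binding and membrane proteins. Acrv1 encodes a protein of the sperm acrosome and had levels of 3.88, 3.26 and 3.32 in 0.1 pg after 4 rounds and 3.73, 3.24 and 2.58 in 1 pg after 2 rounds, against −1.67 in bulk (difference from bulk 5.15 in 0.1 pg after 4 rounds and 4.85 in 1 pg after 2 rounds). Rbpms, an RNA-binding protein, had 3.53, 3.27 and 3.16 in 0.1 pg after 4 rounds, 4.05, 3.08 and 3.76 in 1 pg after 2 rounds and −1.77 in bulk (difference from bulk 5.09 in 0.1 pg after 4 rounds and 5.40 in 1 pg after 2 rounds). Lrriq4, a leucine-rich repeat protein, had 3.66, 3.58 and 3.50 in 0.1 pg after 4 rounds, 4.14, 2.79 and 3.24 in 1 pg after 2 rounds and −1.62 in bulk (difference from bulk 5.19 in 0.1 pg after 4 rounds and 5.00 in 1 pg after 2 rounds). In these genes the arrays of the groups overlapped and stood at least 4 log2 units above bulk. Tmem91, a membrane protein, had 4.74, 4.05 and 1.68 in 0.1 pg after 4 rounds, 4.03, 3.12 and 3.34 in 1 pg after 2 rounds and −2.07 in bulk (difference from bulk 5.56 in 0.1 pg after 4 rounds and 5.56 in 1 pg after 2 rounds). Tsnax, a partner of the RNA-binding protein translin, had 4.61, 4.73 and 4.67 in 0.1 pg after 4 rounds, 4.45, 4.46 and 4.29 in 1 pg after 2 rounds and −0.26 in bulk (difference from bulk 4.93 in 0.1 pg after 4 rounds and 4.66 in 1 pg after 2 rounds). The 5 bulk levels lay below the median of the array, and no detection call was used, so whether they exceed background is not known and the sizes of these differences are those of the scaled values only. Each is the probe set of the highest mean, a choice that favours probe sets high in amplified arrays. The 3 further probe sets of Rbpms differed from bulk by −2.05 to 0.59 in 0.1 pg after 4 rounds and by −1.32 to 0.04 in 1 pg after 2 rounds, and that of Tsnax by −1.43 in 0.1 pg after 4 rounds and −0.69 in 1 pg after 2 rounds, without a call. Adjusted p of these 5 genes against bulk ran between 0.0032 and 0.0362 by limma. Calls for Tmem91, Rbpms and Lrriq4 held under all 12 settings tried and those for Acrv1 and Tsnax under 7 of them, with no change of sign.

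Pex6, Lsamp and Bmp2k, the genes with which the pair was proposed, are given as levels with no test. Pex6, an ATPase that peroxisomes need for protein import, had 7.72, 7.45 and 6.01 in 0.1 pg after 4 rounds and 6.20, 5.62 and 5.92 in 1 pg after 2 rounds, against 1.53 in bulk. It had 4.04, 2.76 and 6.15 in 0.1 pg after 2 rounds, 1.08, 3.21 and 0.11 in 1 pg after 4 rounds and 0.12, 1.34 and 2.47 in 10 pg after 4 rounds, so 1 array of 0.1 pg after 2 rounds reached the range of the pair. Lsamp, an adhesion protein of limbic neurons, had 7.97, 7.49 and 6.79 in 0.1 pg after 4 rounds and 7.63, 6.63 and 6.48 in 1 pg after 2 rounds, against 3.71 in bulk. Bmp2k, a kinase of the clathrin adaptor, had 5.08, 4.95 and 5.72 in 0.1 pg after 4 rounds and 4.99, 4.69 and 4.52 in 1 pg after 2 rounds, against 0.11 in bulk. The mean of 0.1 pg after 4 rounds was above that of 1 pg after 2 rounds by 1.14 for Pex6, 0.51 for Lsamp and 0.52 for Bmp2k. Their other probe sets lay nearer to bulk. The 4 further probe sets of Pex6 differed from bulk by −2.25 to 1.5, and the 2 of Bmp2k by −0.46 and −1.09 in 0.1 pg after 4 rounds and by 0.03 and −0.18 in 1 pg after 2 rounds.

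Genes lower than bulk in both groups included enzymes, transcription and RNA factors, and membrane proteins. Cmpk1, a kinase of pyrimidine nucleotides, had −1.78, −1.49 and −2.23 in 0.1 pg after 4 rounds and −1.32, −1.46 and −1.42 in 1 pg after 2 rounds, against 4.40 in bulk (difference from bulk −6.24 in 0.1 pg after 4 rounds and −5.80 in 1 pg after 2 rounds). Mal2, a membrane protein of vesicle traffic, had −1.53, −2.08 and −1.86 in 0.1 pg after 4 rounds, −1.10, −2.0 and −1.55 in 1 pg after 2 rounds and 3.84 in bulk (difference from bulk −5.66 in 0.1 pg after 4 rounds and −5.39 in 1 pg after 2 rounds). The arrays of the groups overlapped in Mal2 and not in Cmpk1, and in both genes they lay far below bulk. Mal2 was low in every amplified group, with means of −2.05 in 0.1 pg after 2 rounds, −2.09 in 1 pg after 4 rounds and −1.86 in 10 pg after 4 rounds. Cmpk1 had means of −2.26 in 0.1 pg after 2 rounds, −1.27 in 1 pg after 4 rounds and 1.43 in 10 pg after 4 rounds. Atf2, a transcription factor of the stress response, had −2.04, −1.37 and −2.73 in 0.1 pg after 4 rounds, −0.21, −0.30 and −3.18 in 1 pg after 2 rounds and 4.18 in bulk (difference from bulk −6.22 in 0.1 pg after 4 rounds and −5.41 in 1 pg after 2 rounds). A second probe set of Atf2 was also called in both groups (difference from bulk −6.34 in 0.1 pg after 4 rounds and −6.56 in 1 pg after 2 rounds). The call of Atf2 for 1 pg after 2 rounds was lost without its replicate 3.

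Kcnk15, a background potassium channel subunit, had −1.74, 0.37 and −0.87 in 0.1 pg after 4 rounds, −1.25, 0.24 and −0.11 in 1 pg after 2 rounds and 5.07 in bulk (difference from bulk −5.81 in 0.1 pg after 4 rounds and −5.44 in 1 pg after 2 rounds). Like Mal2 it was low in the other amplified groups, with means of 0.06 in 0.1 pg after 2 rounds, 0.12 in 1 pg after 4 rounds and 0.43 in 10 pg after 4 rounds. Fam120a, an RNA-binding protein, had −1.91, 0.04 and −0.33 in 0.1 pg after 4 rounds, 0.00, 0.09 and −0.18 in 1 pg after 2 rounds and 5.47 in bulk (difference from bulk −6.21 in 0.1 pg after 4 rounds and −5.50 in 1 pg after 2 rounds). Secisbp2l, related to the protein that reads selenocysteine signals, had −2.23, −3.16 and −0.26 in 0.1 pg after 4 rounds, −0.14, 0.52 and −0.31 in 1 pg after 2 rounds and 5.38 in bulk (difference from bulk −7.26 in 0.1 pg after 4 rounds and −5.35 in 1 pg after 2 rounds). Secisbp2l and Fam120a were nearer to bulk in 1 pg after 4 rounds, at 1.72, 3.03 and 4.16 for Secisbp2l and 2.16, 4.03 and 5.99 for Fam120a. Adjusted p of the 6 lower genes against bulk ran between 0.00259 and 0.0315 by limma. Further probe sets of Fam120a, Cmpk1 and Secisbp2l were not called against bulk. Those of Fam120a differed by −4.11 to 0.88 in 0.1 pg after 4 rounds and −3.81 to 0.21 in 1 pg after 2 rounds. That of Cmpk1 differed by 0.95 in 0.1 pg after 4 rounds and −0.66 in 1 pg after 2 rounds. For Secisbp2l the values were −0.00307 in 0.1 pg after 4 rounds and −0.72 in 1 pg after 2 rounds.

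**Figure D4:**
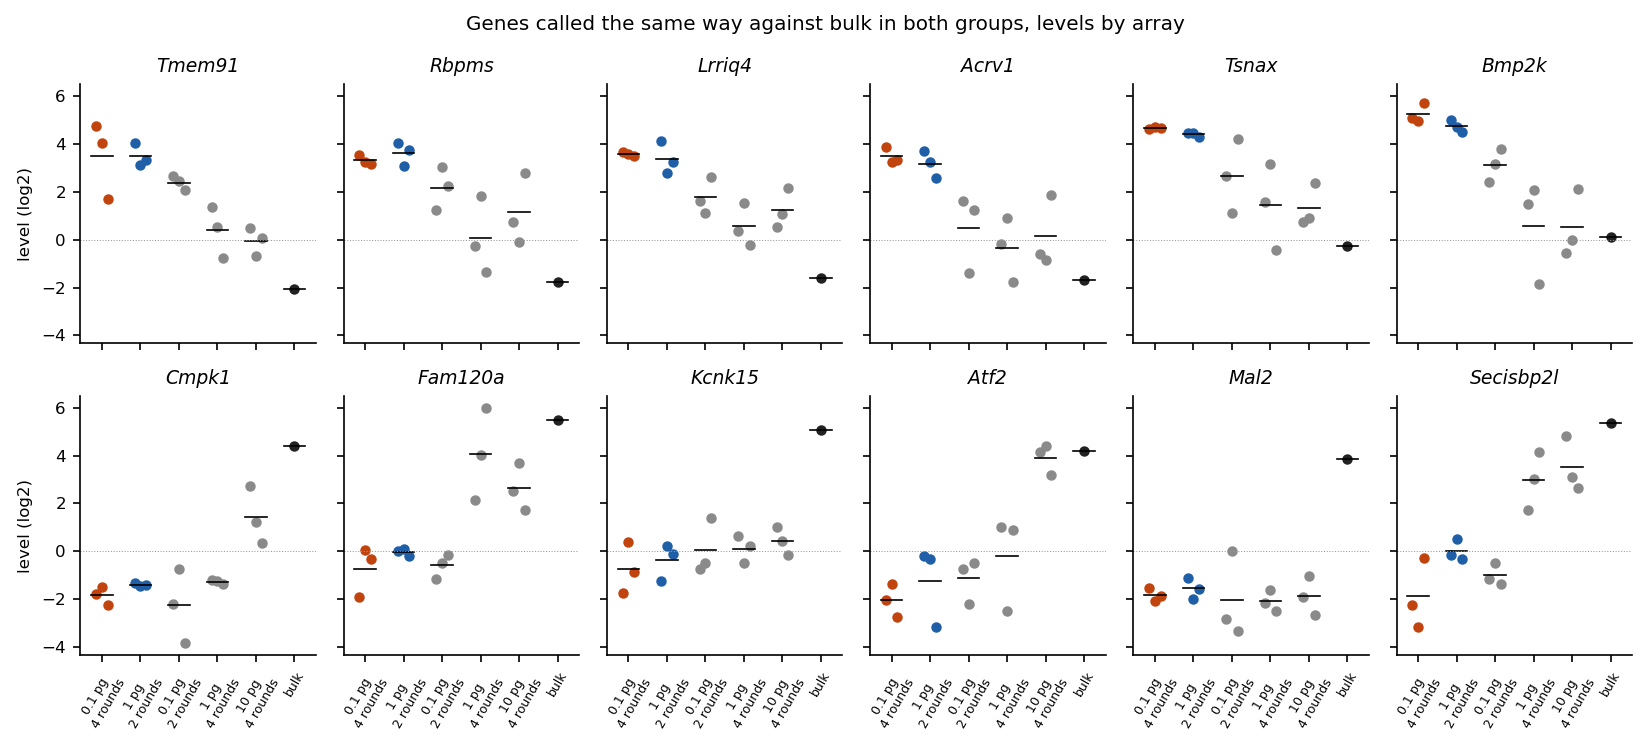
Levels (log2, scaled, vertical axis) by array and group (horizontal axis) of 6 genes higher than bulk in both groups (above) and 6 genes lower than bulk in both (below), with 1 point per array. In 0.1 pg after 4 rounds and 1 pg after 2 rounds Acrv1 lies at 2.58 to 3.88, against −1.67 in bulk, and Mal2 at −2.08 to −1.10, against 3.84 in bulk.

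A change shared by both groups was seldom shared by a gene's other probe sets. Of the 213 shared higher genes, 120 had further probe sets, 235 in all, of which 3 (1.28%) were themselves called higher in both groups, against 415 (0.921%) of all probe sets. The median difference from bulk was −0.03 at 0.1 pg after 4 rounds and −0.06 at 1 pg after 2 rounds for those further probe sets, against 3.25 at 0.1 pg after 4 rounds and 3.15 at 1 pg after 2 rounds for the probe sets that represent the genes. Of the 245 shared lower genes, 167 had 329 further probe sets, of which 15 (4.56%) were called lower in both, against 777 (1.73%) of all. Their median was −0.71 at 0.1 pg after 4 rounds and −0.73 at 1 pg after 2 rounds, against −3.62 at 0.1 pg after 4 rounds and −3.59 at 1 pg after 2 rounds for the representing probe sets. A representing probe set is the one of highest mean over arrays nearly all amplified, and the shared genes were then picked by the calls of those probe sets, so the gap between representing and further probe sets is a description and the values of shared genes describe single probe sets.

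The most abundant genes were shared as well. Of the 910 genes in the top 5% of each group, ranked by the median over all probe sets of a gene, 785 (86.3%) were common to 0.1 pg after 4 rounds and 1 pg after 2 rounds. The list of 0.1 pg after 4 rounds shared 554 (60.9%) with that of bulk, and the list of 1 pg after 2 rounds shared 557 (61.2%). All 3 lists held 529 genes (58.1% of the bulk list), and 328 of the bulk list (36.0%) were in neither amplified list. Just 25 genes of the bulk list were recovered by 0.1 pg after 4 rounds alone and 28 by 1 pg after 2 rounds alone. Of the 19 pan-neuronal genes measured, 1 was in the top list of 0.1 pg after 4 rounds, 2 in that of 1 pg after 2 rounds and 9 in that of bulk, with 7 in bulk alone. Of 7 genes of 14-3-3 proteins, abundant adaptors that bind phosphorylated partners, 1 was in the top list of 0.1 pg after 4 rounds, 0 in that of 1 pg after 2 rounds and 5 in that of bulk.

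Gene groups were compared by the number of members called and by the rank of their members, given as the median percentile of the group among all genes of an array. Of the 32 groups, only tubulins (Tubb2b) and genes of clathrin endocytosis (Cltc) had a member called between 0.1 pg after 4 rounds and 1 pg after 2 rounds. In 8 of the 32 groups (25%) the median percentiles of the 2 sets of 3 arrays did not overlap, beside 17.6% of single genes whose levels did not overlap. In 7 of these the arrays of 0.1 pg after 4 rounds were lower, namely markers of excitatory neurons, inhibitory neurons and microglia, 14-3-3 proteins, tubulins, RAB GTPases, and the respiratory chain with ATP synthase. In GABA receptors they were higher. Tubulins stood at 50.5, 52.2 and 53.2 in 0.1 pg after 4 rounds and 72.1, 67.2 and 72.3 in 1 pg after 2 rounds, against 76.3 in bulk, although Tubb2b itself was higher in 0.1 pg after 4 rounds. The microglia markers stood at 64.8, 54.3 and 67.7 in 0.1 pg after 4 rounds and 79.6, 70.5 and 82.5 in 1 pg after 2 rounds, against 66.3 in bulk. Their median difference of 0.1 pg after 4 rounds minus 1 pg after 2 rounds was 0.21, the opposite order. The order of the 2 groups in microglia markers thus depends on the measure. These groups were not chosen independently of the data, and no test is given for their percentiles.

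The 3 lists of neuron markers ranked below bulk in all 6 amplified arrays, while some other groups of neuronal genes ranked above it. Synaptotagmins (16), calcium sensors of vesicle release, stood at the median percentiles 53.6, 60.7 and 59.7 in 0.1 pg after 4 rounds and 63.4, 53.8 and 57.5 in 1 pg after 2 rounds, against 41.5 in bulk. Calmodulin and its kinases (12) stood at 67.5, 72.3 and 73.4 in 0.1 pg after 4 rounds and 73.9, 71.4 and 70.0 in 1 pg after 2 rounds, against 61.7 in bulk. Their median difference from bulk was 0.08 in 0.1 pg after 4 rounds and 0.11 in 1 pg after 2 rounds, below the 0.18 and 0.23 over all genes. The top 5% of bulk held 3 synaptotagmins and 2 genes of the calmodulin group, and the top 5% of either amplified group held 0 of them. The higher rank of the median member was thus not matched in the top lists. Percentiles use the representing probe set of a gene and the top lists the median over all its probe sets. The part of that difference in the mismatch was not tested. Markers of excitatory neurons (14 measured) stood at the median percentiles 37.9, 33.0 and 40.3 in 0.1 pg after 4 rounds and 50.6, 50.7 and 60.3 in 1 pg after 2 rounds, against 73.3 in bulk. Markers of inhibitory neurons (15) stood at 39.3, 40.0 and 39.3 in 0.1 pg after 4 rounds and 63.0, 44.5 and 49.3 in 1 pg after 2 rounds, against 73.9 in bulk. In both groups of markers the arrays of 0.1 pg after 4 rounds lay farther from bulk, but 0 members were called between the groups. Against bulk 1 excitatory marker, the transcription factor Tbr1, fell in 0.1 pg after 4 rounds, and 0 markers of either kind were called in 1 pg after 2 rounds. With the median over all probe sets of each gene the median difference between the groups was −0.23 rather than −0.47 for excitatory markers, and 0.26 rather than −0.32 for inhibitory markers, so the order of the 2 groups in inhibitory markers depends on the probe set. Pan-neuronal genes (19) stood at 79.0, 49.8 and 79.8 in 0.1 pg after 4 rounds, 81.1, 68.8 and 78.5 in 1 pg after 2 rounds and 88.3 in bulk.

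Against bulk, 1 pan-neuronal gene was higher and 2 lower in 0.1 pg after 4 rounds, and 1 higher and 1 lower in 1 pg after 2 rounds. Rbfox3, the neuronal splicing factor NeuN, was at 4.25, 4.27 and 4.40 in 0.1 pg after 4 rounds and 4.41, 4.03 and 4.31 in 1 pg after 2 rounds, against 1.46 in bulk (difference from bulk 2.84 in 0.1 pg after 4 rounds, adjusted p = 0.00877 by limma, and 2.79 in 1 pg after 2 rounds, adjusted p = 0.0146 by limma). It rose in both groups and the arrays of the groups overlapped. Eno2, the neuronal enolase, was at −0.47, −0.15 and 3.74 in 0.1 pg after 4 rounds and 2.69, 4.19 and 2.37 in 1 pg after 2 rounds, against 6.06 in bulk (difference from bulk −5.03 in 0.1 pg after 4 rounds, adjusted p = 0.0318 by limma, and −2.98 in 1 pg after 2 rounds, adjusted p = 0.19 by limma). Vsnl1, a neuronal calcium sensor, fell by 4.08 in 1 pg after 2 rounds, with levels of 2.31, −0.67 and 2.45 in 0.1 pg after 4 rounds, 0.06, 0.85 and 0.85 in 1 pg after 2 rounds and 4.66 in bulk. Syn1, a synaptic vesicle protein, had 1 array apart from its replicates, with 2.24, 2.20 and 7.29 in 0.1 pg after 4 rounds, 2.28, 1.51 and 1.68 in 1 pg after 2 rounds and 4.32 in bulk.

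Calls in receptors and channels were read beside those of all genes. Over all genes 2.19% were called higher and 2.46% lower than bulk in 0.1 pg after 4 rounds, and 1.87% higher and 1.84% lower in 1 pg after 2 rounds. Of 22 glutamate receptor genes 1 (4.55%) was called lower in 0.1 pg after 4 rounds and 0 in 1 pg after 2 rounds, with median differences from bulk of −0.64 in 0.1 pg after 4 rounds and −0.53 in 1 pg after 2 rounds, against 0.18 and 0.23 over all genes. The called gene was Gria2, an AMPA receptor subunit, at 0.92, 0.71 and 1.84 in 0.1 pg after 4 rounds, 2.23, 3.16 and 1.75 in 1 pg after 2 rounds and 6.07 in bulk (difference from bulk −4.91 in 0.1 pg after 4 rounds and −3.69 in 1 pg after 2 rounds). Of 16 GABA receptor genes 0 were called in either group. Their median percentile was 64.6, 56.8 and 59.8 in 0.1 pg after 4 rounds and 55.4, 41.7 and 45.0 in 1 pg after 2 rounds, against 53.5 in bulk. Gabra5, a GABA-A receptor subunit, had 1.45, 1.38 and 3.17 in 0.1 pg after 4 rounds and −1.03, −1.04 and 0.74 in 1 pg after 2 rounds, and 0.00 in bulk (difference between the groups 2.44, adjusted p = 0.77 by limma). Of 80 potassium channel genes 2 (2.5%) were higher and 3 (3.75%) lower in 0.1 pg after 4 rounds, and 1 (1.25%) higher and 3 (3.75%) lower in 1 pg after 2 rounds. Kcnmb1, a subunit of the large-conductance channel, was higher in both, by 4.16 in 0.1 pg after 4 rounds and 4.24 in 1 pg after 2 rounds. Kcnk15 and the pore-forming subunits Kcnd2 and Kcnt2 were lower in both. Kcnd2 fell by 3.17 in 0.1 pg after 4 rounds and fell by 2.86 in 1 pg after 2 rounds, and Kcnt2 fell by 3.65 in 0.1 pg after 4 rounds and fell by 4.07 in 1 pg after 2 rounds.

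Among genes of dendrites and vesicles, calls against bulk were all lower. Of 18 genes whose mRNAs lie in dendrites, 3 (16.7%) fell in 0.1 pg after 4 rounds and 2 (11.1%) in 1 pg after 2 rounds, against 2.46% and 1.84% of all genes. The 2 called in both were Eef1a1, a translation elongation factor, at −0.80, −1.11 and 0.93 in 0.1 pg after 4 rounds, −0.44, −0.86 and 0.39 in 1 pg after 2 rounds and 3.91 in bulk, and Sparcl1, a secreted matricellular protein, at −0.54, −1.27 and −2.23 in 0.1 pg after 4 rounds, −0.63, −0.56 and −0.69 in 1 pg after 2 rounds and 3.26 in bulk. Both genes were about 4 log2 units below bulk in each group. Camk2a, a postsynaptic kinase whose mRNA is a classical dendritic one, had 2.10, 2.44 and 2.66 in 0.1 pg after 4 rounds, 2.53, 3.71 and 3.22 in 1 pg after 2 rounds and 4.90 in bulk. Of 21 genes of clathrin endocytosis 2 (9.52%) fell in 0.1 pg after 4 rounds and 3 (14.3%) in 1 pg after 2 rounds. The one common to both was Dnajc6, the auxilin that uncoats vesicles, at 1.00, −0.92 and −0.96 in 0.1 pg after 4 rounds, 1.90, 1.26 and 0.54 in 1 pg after 2 rounds and 5.16 in bulk. All genes are an unlike background for these lists. In bulk the dendritic genes stood at the median percentile 89.2 and the clathrin genes at 88.2. The genes highest in bulk (4548 genes) held 230 of the 245 genes lower in both groups. Whether these lists fell more than other genes high in bulk was not tested.

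Of the 7 genes of 14-3-3 proteins 3 (42.9%) fell in 0.1 pg after 4 rounds and 1 (14.3%) in 1 pg after 2 rounds, against 2.46% and 1.84% of all genes, and their median differences from bulk, −2.67 in 0.1 pg after 4 rounds and −1.75 in 1 pg after 2 rounds, were the lowest of the 32 groups in both. Ywhae fell by 4.65 in 0.1 pg after 4 rounds and fell by 3.65 in 1 pg after 2 rounds. The 14-3-3 genes stood at the median percentile 94.3 in bulk, so all genes are an unlike background for them too. Of 15 tubulins, Tubb2b rose and Tuba4a fell in 0.1 pg after 4 rounds (6.67% each way), and 0 were called in 1 pg after 2 rounds. Tuba4a, an alpha-tubulin, had −1.08, −0.70 and −2.13 in 0.1 pg after 4 rounds and 1.77, 1.41 and 2.09 in 1 pg after 2 rounds, against 4.84 in bulk. Its arrays did not overlap between the groups, yet the difference of −3.06 was not called (adjusted p = 0.262 by limma). Tuba1a, another alpha-tubulin, was at 5.61, 5.65 and 4.93 in 0.1 pg after 4 rounds, 4.42, 2.0 and 3.20 in 1 pg after 2 rounds and 4.65 in bulk. Of 41 kinesins, motors that move cargo along microtubules, 1 was higher and 2 lower in both groups, and 1 more was lower in 0.1 pg after 4 rounds, so that 7.32% were lower in 0.1 pg after 4 rounds and 4.88% in 1 pg after 2 rounds. Kif28 was higher by 2.29 in 0.1 pg after 4 rounds and 2.63 in 1 pg after 2 rounds, while Kif17, which carries cargo into dendrites, fell by 3.41 in 0.1 pg after 4 rounds and fell by 3.33 in 1 pg after 2 rounds. Kif12 fell by 2.66 in 0.1 pg after 4 rounds and fell by 3.67 in 1 pg after 2 rounds. Of 59 RAB GTPases, which direct vesicle traffic, 4 (6.78%) fell in 0.1 pg after 4 rounds and 2 (3.39%) in 1 pg after 2 rounds, with Rab6a of the Golgi apparatus in both, where it fell by 5.36 in 0.1 pg after 4 rounds and fell by 4.31 in 1 pg after 2 rounds. Of 16 synaptotagmins 0 were called in either group. Of 18 immediate early genes and 12 genes of calmodulin and its kinases, Egr3 (5.56% of its group) and Calm4 (8.33%) fell in 0.1 pg after 4 rounds, and 0 were called in 1 pg after 2 rounds.

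Groups of glia and other cortical cells held between 0 and 2 called members in either group. Of 14 astrocyte markers Fgfr3 was higher and Ndrg2 lower in 0.1 pg after 4 rounds, and S100b was higher and Aldoc lower in 1 pg after 2 rounds (7.14% each), with 0 called in both. Among all genes 1.84% to 2.46% were called in a given direction. Ndrg2, an astrocyte protein, was at −1.68, −1.18 and 0.00 in 0.1 pg after 4 rounds, 0.73, 0.58 and −0.31 in 1 pg after 2 rounds and 4.93 in bulk. S100b, a calcium-binding protein of astrocytes, was at 1.93, 2.46 and 1.02 in 0.1 pg after 4 rounds, 3.51, 3.17 and 2.82 in 1 pg after 2 rounds and −0.11 in bulk. None of the 4 was called between the groups. Of 15 vascular markers Pdgfrb, a receptor of pericytes, was higher in both groups, at 5.72, 5.45 and 6.21 in 0.1 pg after 4 rounds, 6.30, 5.63 and 4.68 in 1 pg after 2 rounds and 2.33 in bulk. Of 13 microglia markers 0 were called in 0.1 pg after 4 rounds and 1 was higher in 1 pg after 2 rounds, and of 15 oligodendrocyte markers 0 were called in either. The microglial gene was Tyrobp, a signalling adaptor. Mbp, the myelin basic protein, had 3.89, 4.14 and 4.27 in 0.1 pg after 4 rounds, 3.95, 3.44 and 4.03 in 1 pg after 2 rounds and 2.81 in bulk. Of 5 blood markers and 9 markers of choroid plexus and ependyma 0 were called in either group. The blood markers stood at the median percentiles 50.8, 48.9 and 27.2 in 0.1 pg after 4 rounds, 39.4, 17.6 and 39.2 in 1 pg after 2 rounds and 28.4 in bulk. The choroid plexus markers stood at 45.1, 36.1 and 21.9 in 0.1 pg after 4 rounds, 30.1, 44.5 and 30.9 in 1 pg after 2 rounds and 27.7 in bulk.

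Of 90 genes of the respiratory chain and ATP synthase, 1 (1.11%) was higher and 7 (7.78%) lower in 0.1 pg after 4 rounds, 1 (1.11%) higher and 6 (6.67%) lower in 1 pg after 2 rounds, and 1 and 6 were the same genes. Of all genes 2.46% were lower in 0.1 pg after 4 rounds and 1.84% in 1 pg after 2 rounds, but this group ranked higher in bulk than all genes do. Ndufs4, a subunit of complex I, was the one higher, at 4.46, 4.13 and 3.97 in 0.1 pg after 4 rounds, 4.40, 3.62 and 3.26 in 1 pg after 2 rounds and −0.43 in bulk. Those lower in both were Ndufc2 of complex I, Cox4i1 and Cox4i2 of complex IV, and Atp5j, Atp5md and Atp5o of ATP synthase, with differences of −4.52 to −3.03 in 0.1 pg after 4 rounds and −3.82 to −2.64 in 1 pg after 2 rounds. The group stood at the median percentiles 51.5, 53.2 and 45.6 in 0.1 pg after 4 rounds and 63.0, 59.0 and 62.4 in 1 pg after 2 rounds, against 71.9 in bulk, without overlap between the groups. Of 14 glycolysis enzymes 2 (14.3%) fell in each group, with Pgam1, a phosphoglycerate mutase, in both, at −4.65 in 0.1 pg after 4 rounds and −3.74 in 1 pg after 2 rounds. Of 48 cytosolic ribosomal proteins 0 were called in 0.1 pg after 4 rounds and Rpl12 was higher and Rps4x lower in 1 pg after 2 rounds, by differences of 2.99 and −2.71. Of 76 mitochondrial ribosomal proteins Mrpl50 and Mrps26 were higher in 0.1 pg after 4 rounds and 0 were called in 1 pg after 2 rounds. Of 39 proteasome subunits Psma7 was higher by 3.65 in 0.1 pg after 4 rounds and 3.17 in 1 pg after 2 rounds, and Psma4 fell by 2.56 in 0.1 pg after 4 rounds and fell by 2.15 in 1 pg after 2 rounds. Of 38 genes of ubiquitin conjugation and cullin ligases 4 (10.5%) fell in 0.1 pg after 4 rounds and 1 (2.63%) in 1 pg after 2 rounds, that one being Ube2h, a conjugating enzyme, which fell by 3.25 in 0.1 pg after 4 rounds and fell by 3.30 in 1 pg after 2 rounds.

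Groups of genes that belong to other tissues ranked higher than in bulk in all 6 amplified arrays. These groups lay in the lower part of the bulk array, where genes rose in general. The genes lowest in bulk (4549 genes) had a median level of −1.23 in bulk, −0.53 in 0.1 pg after 4 rounds and −0.54 in 1 pg after 2 rounds. The part next above it (4548 genes) had −0.05 in bulk, 0.27 in 0.1 pg after 4 rounds and 0.21 in 1 pg after 2 rounds. A rise was thus also seen in genes low in bulk as a whole. Whether genes of other tissues rose more than other genes of like bulk level was not tested. Testis-restricted genes (20) stood at the median percentiles 32.8, 29.0 and 45.9 in 0.1 pg after 4 rounds and 30.5, 38.5 and 35.9 in 1 pg after 2 rounds, against 17.2 in bulk. Vomeronasal receptors (31) stood at 23.8, 26.5 and 24.0 in 0.1 pg after 4 rounds and 17.7, 20.7 and 37.8 in 1 pg after 2 rounds, against 13.6 in bulk. All 6 amplified arrays were also above bulk in Hox genes (57.4 to 57.6 in 0.1 pg after 4 rounds and 48.7 to 64.7 in 1 pg after 2 rounds, against 41.0 in bulk), olfactory receptors, and genes of liver, muscle and pancreas. The median difference from bulk of olfactory receptors was 0.17 in 0.1 pg after 4 rounds and 0.16 in 1 pg after 2 rounds. For genes of liver, muscle and pancreas it was −0.04 in 0.1 pg after 4 rounds and −0.00241 in 1 pg after 2 rounds. These values were below the 0.18 and 0.23 over all genes, although the ranks were higher. Acrv1 and Adam2, genes of sperm, were higher in 0.1 pg after 4 rounds (10% of the group, against 2.19% of all genes), while Acrv1 was higher and Tex101 lower in 1 pg after 2 rounds. The vomeronasal receptor Vmn1r58 was higher by 2.46 in 0.1 pg after 4 rounds and 2.64 in 1 pg after 2 rounds. Of 33 Hox genes, which pattern the body axis, 0 were called in 0.1 pg after 4 rounds and Hoxa7 was higher in 1 pg after 2 rounds. Hoxb4 had 5.96, 1.47 and 1.6 in 0.1 pg after 4 rounds, 1.43, 1.37 and 1.59 in 1 pg after 2 rounds and −1.10 in bulk, so 1 array stood apart. Of 38 olfactory receptors and 20 genes of liver, muscle and pancreas 0 were called in either group.

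**Figure D5:**
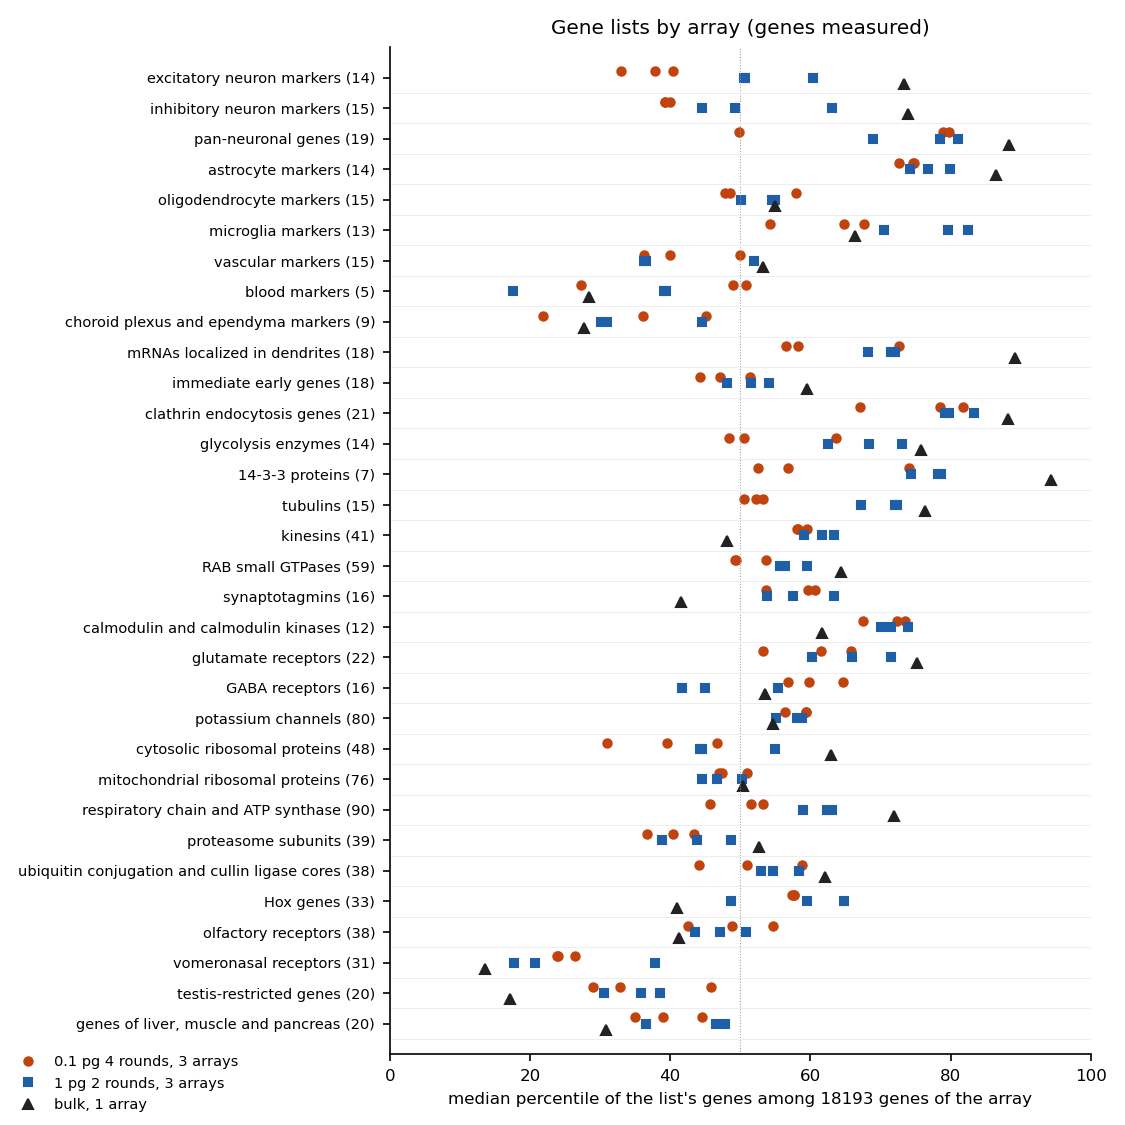
Median percentile of the members of each of 32 gene groups among all genes of an array (horizontal axis, dotted line at 50), for the 3 arrays of 0.1 pg after 4 rounds, the 3 arrays of 1 pg after 2 rounds and the bulk array, with 1 point per array. For excitatory neuron markers the arrays lie at 33.0 to 40.3 in 0.1 pg after 4 rounds and 50.6 to 60.3 in 1 pg after 2 rounds, against 73.3 in bulk.

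The pair was also set against the groups in which the same inputs and rounds are crossed, 0.1 pg after 2 rounds and 1 pg after 4 rounds. Because the pair was proposed for its likeness, these values are a description. All 6 arrays of the pair lay above all 6 arrays of the crossing groups in 352 genes and below them in 90. The sum of the pair minus the sum of the crossing groups, which is also the change with rounds at 0.1 pg minus that at 1 pg, was called by limma in 1619 probe sets (3.59%), and in 551 genes (3.03%) higher and 176 (0.967%) lower. Nothing is read from these counts, which ran between 341 and 3331 probe sets without single arrays. Ccn3, a matricellular protein, had 3.61, 3.52 and 3.57 in 0.1 pg after 4 rounds and 4.05, 2.65 and 3.07 in 1 pg after 2 rounds, against −0.35, 0.39 and 0.66 in 0.1 pg after 2 rounds, −0.11, 1.09 and −1.86 in 1 pg after 4 rounds and 2.38 in bulk. Atp2a3, a calcium pump of the endoplasmic reticulum, had 4.06, 3.61 and 3.22 in 0.1 pg after 4 rounds and 3.74, 2.94 and 3.0 in 1 pg after 2 rounds, against 0.30, −0.22 and 0.45 in 0.1 pg after 2 rounds, 0.88, 1.07 and 0.93 in 1 pg after 4 rounds and 1.62 in bulk. Slc3a1, a subunit of amino acid transporters, had 3.66, 3.27 and 3.78 in 0.1 pg after 4 rounds and 4.11, 3.73 and 3.51 in 1 pg after 2 rounds, against 1.26, 1.24 and 1.22 in 0.1 pg after 2 rounds, −0.55, 1.59 and −0.70 in 1 pg after 4 rounds and 0.02 in bulk. Each of these 3 genes separated the pair from both crossing groups by more than 1 log2 unit. They were named for the width of this gap, so its size is a description. A second probe set of Ccn3 had means of 2.46 in 0.1 pg after 4 rounds and 0.72 in 1 pg after 2 rounds. That of Atp2a3 had means of −0.61 in 0.1 pg after 4 rounds and −0.14 in 1 pg after 2 rounds.

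Asic4, of the acid-sensing channel family, and Ccdc84 showed the same order, with Asic4 at 3.32 to 3.77 and Ccdc84 at 3.66 to 4.37 in the pair. Lsamp did so too, at 6.48 to 7.97 in the pair against 3.76, 4.23 and 4.95 in 0.1 pg after 2 rounds and 2.19, 2.13 and 3.45 in 1 pg after 4 rounds. In the other direction, Purb's representing probe set had 1.03, 1.52 and 1.21 in 0.1 pg after 4 rounds and 1.76, 2.69 and 2.22 in 1 pg after 2 rounds, against 5.19, 4.12 and 3.50 in 0.1 pg after 2 rounds, 3.85, 3.27 and 3.38 in 1 pg after 4 rounds and 4.45 in bulk. Igfbpl1, related to the binding proteins of insulin-like growth factors, had −1.04, −1.15 and 0.07 in 0.1 pg after 4 rounds and −0.07, −0.30 and −1.08 in 1 pg after 2 rounds, against 1.81, 0.86 and 1.26 in 0.1 pg after 2 rounds, 1.09, 1.76 and 1.03 in 1 pg after 4 rounds and 4.16 in bulk. For both genes the pair was farther from bulk than the crossing groups were. Med19, a Mediator subunit, had −1.23, −0.96 and −2.46 in 0.1 pg after 4 rounds and −0.97, −1.46 and −1.85 in 1 pg after 2 rounds, against 0.57, 0.21 and 1.38 in 0.1 pg after 2 rounds, 1.06, 0.20 and 0.26 in 1 pg after 4 rounds and 0.95 in bulk. Scube1, Plcxd3 and Akr1a1 were likewise lower in the pair, at 0.03 to 0.85 for Scube1, 1.73 to 2.17 for Plcxd3 and 0.37 to 1.18 for Akr1a1.

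Control probe sets read the 2 ends of control transcripts and the hybridization of each array. The level of the 3′ end of beta-actin minus that of its 5′ end was −0.73, −0.71 and −0.99 in 0.1 pg after 4 rounds and 1.29, −0.70 and 0.65 in 1 pg after 2 rounds, against 1.09 in bulk (exact two-sided permutation test between the groups, p = 0.1, the smallest that 3 arrays against 3 allow). For Gapdh the same difference was 3.68, 3.72 and 3.73 in 0.1 pg after 4 rounds and 3.03, 4.20 and 5.58 in 1 pg after 2 rounds, against 2.05 in bulk (exact permutation p = 0.7). For the transferrin receptor it was 7.47, 5.97 and 6.43 in 0.1 pg after 4 rounds and 4.84, 5.74 and 3.79 in 1 pg after 2 rounds, against 5.37 in bulk (exact permutation p = 0.1). For pyruvate carboxylase it was −1.12, 0.11 and 0.21 in 0.1 pg after 4 rounds and −1.02, −1.41 and −0.59 in 1 pg after 2 rounds, against 0.34 in bulk (exact permutation p = 0.3). The hybridization controls, added to every array at a set amount, averaged 6.04, 5.62 and 5.96 in 0.1 pg after 4 rounds and 6.14, 7.73 and 6.83 in 1 pg after 2 rounds, against 5.42 in bulk (18 probe sets, exact permutation p = 0.1). They did not overlap between the groups. Probe sets of 18S ribosomal RNA averaged 1.85, 1.56 and 4.87 in 0.1 pg after 4 rounds and 3.62, 3.88 and 3.72 in 1 pg after 2 rounds, against 5.40 in bulk (exact permutation p = 0.4). The part of these controls in the differences between the groups and from bulk was not tested.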

How the data were processed

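The authors deposited log2 probe set levels, summarised from Affymetrix arrays with RMA 2.0 by the upper decile statistic. Their methods centre each array on its median and scale it by the distance from the 10th to the 90th percentile. Neither step is in the deposited values (1.56 to 15.8), so both were applied here, with the mean distance (4.63) as the common scale. No depth exists for arrays; the number of arrays limits precision. Of 45101 probe sets, 64 controls were left out of the tests; 932 carried several symbols and 9160 none. No 2 arrays shared more than 0.926% identical values. Within an array many probe sets were tied, with 2306 to 4345 distinct values in the 6 arrays of the pair. Levels and percentiles of single arrays therefore hold ties.

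Differences were fitted with limma 3.58.1 in R 4.3.3 on 7 group means over all 17 arrays (16.4 degrees of freedom), with Benjamini-Hochberg adjustment over 45037 probe sets at 0.05, and the fit was checked on simulated data. A t-test named by the methods served as an alternative. Other summaries used Python 3.11.15, pandas 2.3.3 and scipy 1.17.1. Alternatives were other scalings, filters, thresholds, sets of arrays and a replicate block.

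Genes were named by a rule: the largest called differences between the groups without overlap of arrays, the 6 highest and 6 lowest called the same way against bulk in both, the 6 widest gaps to the crossing groups each way, and the 2 highest and 2 lowest members of each gene group. Defining markers, members called against bulk and genes whose arrays stand apart were added after their values were seen. Members and gene lists were chosen with earlier results of these data known.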

Additional observations from a re-analysis of the deposited data

Results flagged for a closer look

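The change with rounds differed between 0.1 pg and 1 pg by a test of the difference itself in 1619 probe sets (limma, adjusted p below 0.05). The same contrast sets 0.1 pg after 4 rounds and 1 pg after 2 rounds against 0.1 pg after 2 rounds and 1 pg after 4 rounds, and the pair was proposed for its likeness, so the count is a description. Leaving out arrays of the crossing groups, a choice made after seeing the data, gave 3331 when replicate 3 of 0.1 pg after 2 rounds was omitted, and 531 (replicate 1), 2647 (replicate 2) or 789 (replicate 3) when one of 1 pg after 4 rounds was. Omitting an array of 0.1 pg after 4 rounds gave 341 (replicate 1) or 472 (replicate 2), and omitting one of 1 pg after 2 rounds gave 499 (replicate 1), 1076 (replicate 2) or 588 (replicate 3).

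Hybridization controls, which the comparisons of genes do not use, lay above bulk by 0.452 (log2, mean of 3 arrays) in 0.1 pg after 4 rounds and by 1.48 in 1 pg after 2 rounds.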

How the results depend on the processing

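Without any one array of the 2 groups, the calls between 0.1 pg after 4 rounds and 1 pg after 2 rounds, 10 with all arrays, numbered 0 to 8, with 0 without replicate 2 of 0.1 pg after 4 rounds. Leaving out arrays of the crossing groups, added after seeing the data, gave 8 to 13. Fitted on the compared groups alone the count was 6, and it was 0 with the methods' t-test (3781 at an unadjusted p below 0.05) at either threshold and 0 for limma at a false discovery rate of 0.1% (2146 at an unadjusted p below 0.05). Tubb2b and Ociad1 lost their call with the t-test and without replicate 2 of 0.1 pg after 4 rounds (adjusted p = 0.0542 by limma for both), and Cltc also with quantile normalization (0.0572) and with the compared groups alone (0.129). Against bulk, 0.1 pg after 4 rounds gave 3307 calls with the deposited values, 4317 with the compared groups alone, 3 at 0.1% and 905 to 1754 without single arrays. For 1 pg after 2 rounds the counts were 2817 with the deposited values, 2509 with median centring alone, 3145 with the compared groups alone, 1 at 0.1% and 473 to 1338 without single arrays. Probe sets called the same way in both numbered 1192 (415 higher, 777 lower), against 2055 (1106 higher, 949 lower) with the deposited values, 1846 with median centring alone, 2260 with the compared groups alone, 1 at 0.1% and 418 to 902 without single arrays. The contrast with the crossing groups gave 880 calls with the compared groups alone, 0 at 0.1% (9425 at an unadjusted p below 0.05) and 341 to 3331 without single arrays. The mean correlation between the groups was 0.805 as Spearman's rho, 0.935 on the linear scale and 0.898 over genes. The shared top list was 79.7% at the top 1%, 83.6% at the top 10% and 82.1% with the probe set of highest mean. None of the 3 called genes changed sign under any alternative. The cause of these changes was not tested.

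The main fit did not use the replicate numbers as a pairing. The correlations of deviations were 0.124, 0.0137 and 0.0888 at equal numbers and −0.147 to 0.0639 at unequal numbers. No label says whether equal numbers mark amplifications made together, and so few values cannot settle it. With the replicate number as a block, 8 probe sets, without Cltc (adjusted p = 0.0608 by limma), were called between the groups and 1131 in the contrast with the crossing groups.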
